A study of Mus musculus with 28 samples.

Results

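Dyrk1a and Rcan1 are 2 of the genes that the Ts1Cje mouse, a model of Down syndrome, carries in 3 copies, and both act on the signalling route from calcium to the NFAT transcription factors. The genes described here are these 2 together with 8 partners present in 2 copies: Rcan2, the calcineurin subunit genes Ppp3ca, Ppp3cb, Ppp3cc and Ppp3r1, and the NFAT factors Nfatc1, Nfatc3 and Nfatc4. They were matched by the symbols of the array annotation, current or older, and probes of the same gene were averaged. Of the 10 genes 9 were measured and tested, among 22225 genes and unnamed probes tested in all. No probe was matched to Nfatc4 here. Rcan1 was listed on the array as Dscr1 and Rcan2 as Dscr1l1. Ppp3cb and Nfatc1 had 2 probes each and the other 7 genes had 1.

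Cerebellar RNA of newborn to 10-day-old Ts1Cje mice was set against that of euploid mice on 28 two-colour arrays, at the stages P0, P3, P7 and P10 counted in days from birth, each array holding 1 Ts1Cje and 1 euploid animal and therefore 56 animals in all. Ts1Cje mice carry the segment of chromosome 16 from Sod1 to Zbtb21 in 3 copies and euploid mice carry it in 2. Ts1Cje mice were genotyped by PCR for a neomycin sequence and, by the study, also lack a small piece of distal chromosome 12. Both genotypes shared the strain label B6EiC3SnF1/J A/a, and the labels name no treatment. Both mice of an array had the same stage on 16 arrays, 4 per stage. On the other 12 they were neighbours in age, with 4 arrays for each of the steps P0 to P3, P3 to P7 and P7 to P10, and the older mouse was Ts1Cje on 2 of the 4. An array's name gives the Ts1Cje stage before the slash and the euploid stage after it, so P10/P7 holds a Ts1Cje mouse of P10 and a euploid mouse of P7. In whole cerebellum fewer cells of a type and less RNA per cell cannot be told apart. All values are differences between 2 mice on the log2 scale, in which 3 copies over 2 would give 0.585, and they hold no absolute level, so the levels of different genes could not be ordered.

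Calcineurin is a phosphatase switched on by calcium and calmodulin. It consists of a catalytic A subunit, encoded by Ppp3ca, Ppp3cb or Ppp3cc, and a regulatory B subunit, encoded by Ppp3r1. It removes phosphates from NFAT proteins, which then enter the nucleus. DYRK1A, a kinase, puts phosphates back on NFAT by priming it for other kinases, and RCAN1, a regulator that binds calcineurin, restrains the phosphatase, so both proteins oppose NFAT from different sides of the same step. In the developing brain the route is known for its part in axon growth and in the survival and maturation of neurons.

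Rcan1 is itself a known NFAT target, through the inner of its start sites. Its 2 promoters in the RefSeq table (assembly GRCm38.p6) are shown because the single Rcan1 probe of the array gives no separate value for the transcripts that begin at them. The 250 bases before each start are given 5′ to 3′ on the minus strand, with every GGAAA or TTTCC, the core letters of an NFAT motif on either strand, in capitals. The inner promoter lies at chr16:92400079-92400328 and the outer one at chr16:92466170-92466419.
Rcan1 inner promoter: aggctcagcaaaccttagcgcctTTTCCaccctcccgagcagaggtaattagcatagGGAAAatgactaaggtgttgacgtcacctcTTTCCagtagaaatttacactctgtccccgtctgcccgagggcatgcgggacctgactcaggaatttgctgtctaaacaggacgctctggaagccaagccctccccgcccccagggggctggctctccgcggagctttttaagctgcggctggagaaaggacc
Rcan1 outer promoter: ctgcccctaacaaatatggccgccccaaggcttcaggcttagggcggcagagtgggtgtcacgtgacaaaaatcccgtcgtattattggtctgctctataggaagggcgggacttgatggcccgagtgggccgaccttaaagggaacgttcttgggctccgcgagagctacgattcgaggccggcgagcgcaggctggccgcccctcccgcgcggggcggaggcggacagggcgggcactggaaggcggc
The inner window holds the core 3 times and the outer one 0 times. Among 32851 RefSeq promoter windows of this length, 55.6% hold it at least once and 6.39% at least 3 times, so the letters are common. A match of letters is a description of the sequence and no site was measured here.

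The mean over three-copy genes was above 0 on 27 of 28 arrays, a check of the genotype labels. Arrays held between 11185 and 23732 values, and their spread ran from an SD of 0.42 to 1.76. Array P10/P7 replicate 2 had the fewest values and the widest spread, and P10/P10 replicate 4 (16693 values, SD 1.42) was second in both. P10/P7 replicate 2 gave values for 3 of the 9 genes and P10/P10 replicate 4 for 6. Of the 235 member values, 12 lay more than 1 from 0, on 9 arrays. Xist was higher in the Ts1Cje mouse on 13 arrays and lower on 13. Of 51 markers of 10 cell types, 47 were tested. From P3 to P7, Neurod1 of granule neurons, Gfap and Aqp4 of astrocytes and Mbp of oligodendrocytes rose and Foxp2 of Purkinje cells fell (limma adjusted p from 0.00205 to 0.0435). These were the only markers to pass at this step, 4 higher and 1 lower of the 47, while 0.985% of all features passed. The median change of the whole list was 0.50 for granule neurons and -0.235 for Purkinje cells. It was 0.04 for astrocytes and Bergmann glia and 0.09 for oligodendrocytes, so the named genes do not stand for their lists. For trisomy no marker passed after adjustment. In the mean over stages 1 of the 47 (2.13%, against 4.08% of features) had an unadjusted p below 0.05 by limma, Calb1 of Purkinje cells (0.15). By stage 4 of 47 (8.51%, against 4.43% of features) did at P0, named after their values were seen: Barhl1 of granule cell precursors (0.78), Etv1 of granule neurons (1.44), Pax2 of interneurons (0.35) and Mog of oligodendrocytes (-1.02). There were 1 (2.13%, against 5.61%) at P3, 0 (against 1.73%) at P7 and 3 (6.38%, against 5.21%), all higher, at P10. At P3 it was Slc6a5 of interneurons (2.76), also named after its value was seen. Those of P10 were Pcp2 (0.57) and Foxp2 (0.97) of Purkinje cells and Cx3cr1 of microglia (1.24). The part of cell composition in the results below was not tested.

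Dyrk1a was higher in the Ts1Cje mouse on 13 of the 15 same-stage arrays that measured it, with a mean of 0.28 ± 0.287 (SD). By dye the mean was 0.21 (median 0.034, n = 7) with Ts1Cje on Cy5 and 0.35 (median 0.286, n = 8) on Cy3. This difference was not tested, and fitting a dye term to all arrays left a mean effect of 0.23 (SE 0.0642). At P0 the 4 arrays gave 0.17, 0.82, 0.29 and 0.55. At P3 they gave 0.08, 0.03, -0.03 and 0.64. At P7 they gave 0.74, 0.23, 0.415 and 0.03, and at P10 the 3 arrays with a value gave -0.008, 0.284 and 0.003. All P0 and P7 arrays thus lay above 0, while P3 and P10 held 1 array each just below it and at P3 replicate 4 stood above the other 3. Flipping the signs of the 15 values in every way, an exact two-sided permutation test, gave p = 0.000549, 1 of 9 such tests, 1 per measured gene. In the fit to all 28 arrays, in which Dyrk1a had 26 values, its mean over the 4 stages was 0.23 (SE 0.0673, 95% interval 0.095 to 0.374), a ratio of 1.18 (1.07 to 1.30). The whole interval lay below 0.585. The unadjusted limma p was 0.00214 (n = 26 arrays) and the limma adjusted p over all features tested was 0.993, so Dyrk1a did not pass.

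**Figure D1:**
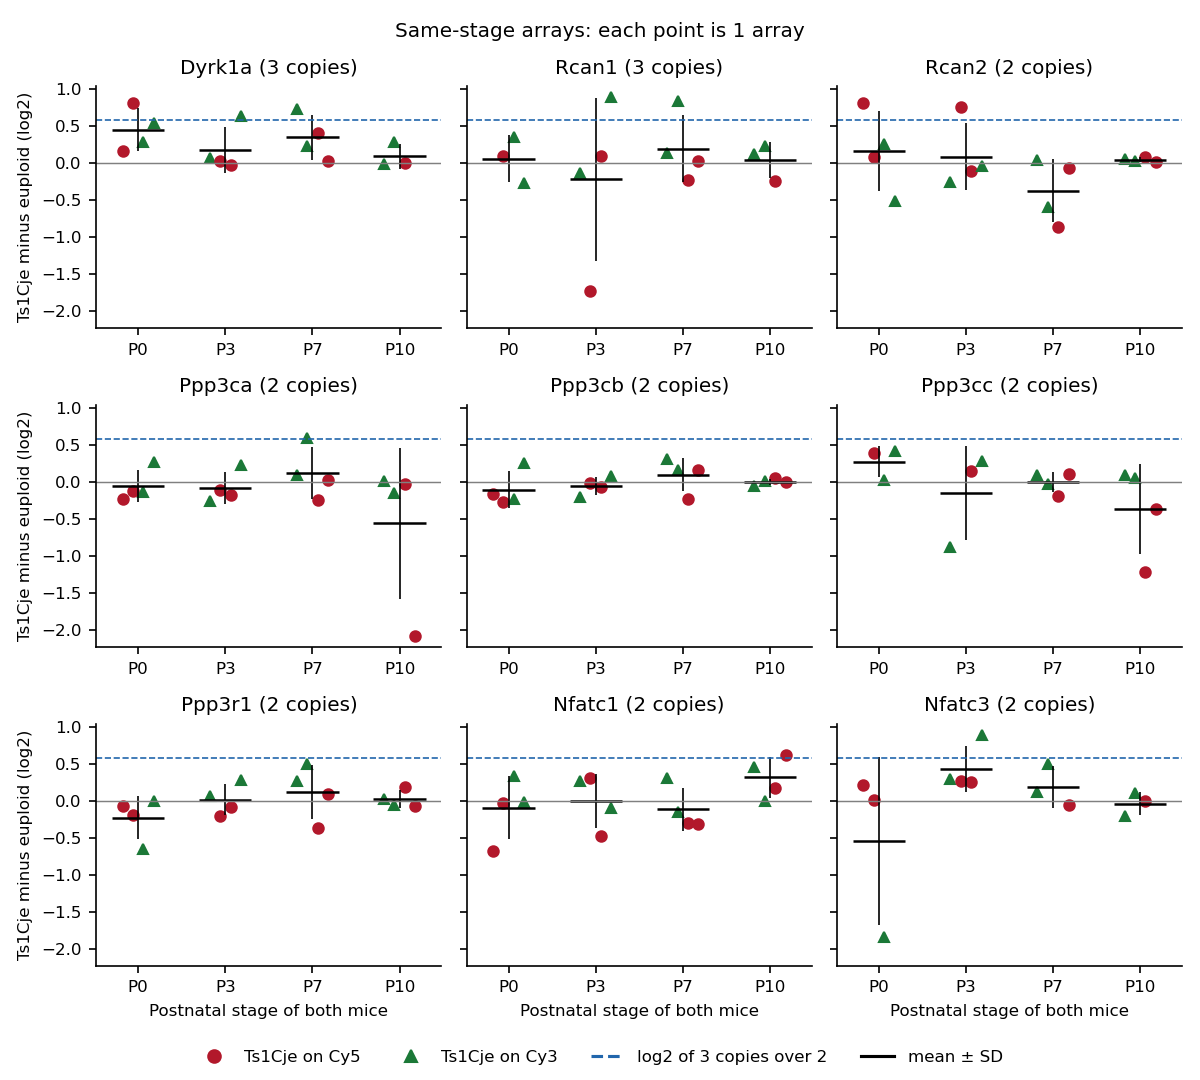
Log2 difference of the Ts1Cje minus the euploid mouse on the same-stage arrays, by stage, for the 9 measured genes. Each point is 1 array, circles with Ts1Cje on Cy5 and triangles on Cy3, bars give the mean ± SD and the dashed line marks 0.585. Dyrk1a lies above 0 on all arrays of P0 and P7, and 1 array each sets Rcan1 at P3 (-1.735), Ppp3ca at P10 (-2.085) and Nfatc3 at P0 (-1.845) apart.

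Dyrk1a had the smallest residual SD of the 9 genes, 0.248, and only 2.6% of features had a smaller one. Unlike Ppp3ca, Ppp3cb and Ppp3r1, it had no value on P10/P7 replicate 2 or P10/P10 replicate 4. These were the 2 arrays of widest spread, so the residual SD of Dyrk1a leaves them out. By stage the fit gave 0.42 at P0 (unadjusted limma p = 0.0106, n = 26 arrays), 0.10 at P3, 0.32 at P7 (unadjusted p = 0.0368) and 0.10 at P10, with 95% intervals of 0.11 to 0.73 at P0, -0.19 to 0.39 at P3, 0.02 to 0.61 at P7 and -0.26 to 0.46 at P10. The stages were not shown to differ (moderated F test in limma, unadjusted p = 0.454, n = 26 arrays). The P0 value was 0.31 (unadjusted limma p = 0.071, n = 25 arrays) without P0/P0 replicate 2, and the P7 value was 0.22 (unadjusted p = 0.172) without P7/P7 replicate 1, 1 of 5 arrays whose removal took its unadjusted p above 0.05. Within the arrays titled ASJ the mean effect of Dyrk1a was 0.35 (SE 0.148) and within those titled ATJ 0.19 (SE 0.0887).

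Rcan1, in 3 copies as well, had a smaller and far less certain difference on these arrays. On the 14 same-stage arrays with a value the lowest was -1.735, the median 0.10 and the highest 0.89, with 9 above 0 and a mean of 0.02 ± 0.618 (SD, exact sign-flip permutation p = 0.923, two-sided). At P0 the values were 0.105, 0.36 and -0.27. At P3 they were -0.13, -1.735, 0.10 and 0.89. At P7 they were 0.14, 0.845, -0.23 and 0.03, and at P10 0.13, 0.24 and -0.24. Every stage held values on both sides of 0. The fitted mean over stages was 0.10 (SE 0.141, 95% interval -0.20 to 0.40, limma adjusted p = 0.993), a ratio of 1.07 (0.873 to 1.32), from 23 arrays. The interval held 0 and ended below 0.585. Without P3/P3 replicate 2 the mean was 0.16 (SE 0.104) and the P3 value changed sign, at 0.30 against -0.08 with that array. By dye, the same-stage mean of Rcan1 was -0.33 with Ts1Cje on Cy5 (n = 6) and 0.28 on Cy3 (n = 8), a difference that was not tested. Without P3/P3 replicate 2, left out after seeing the data, the Cy5 mean was -0.05 (n = 5). Fitting a dye term left a mean effect of 0.08 (SE 0.129).

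Set against each other on the same arrays, Dyrk1a exceeded Rcan1 on 8 of 14 same-stage arrays, by 0.27 ± 0.596 (SD), and the pair was not shown to differ (exact sign-flip permutation p = 0.107, two-sided, a comparison chosen after the values were seen). Among the 73 three-copy genes tested Dyrk1a ranked 29th and Rcan1 41st by the size of the mean effect, and Dyrk1a 8th by its p, Rcan1 48th. The median of the 73 was 0.14, and 54 lay above 0. Dyrk1a thus stood above that median and Rcan1 below it, and the intervals of both held it. By the study, both genes were higher in Ts1Cje mice in the dissected external granule cell layer at P0, at ratios below 1.5, measured on another type of array. It also reports that the triplicated genes it tested by qPCR in P0 cerebellum were over-expressed, at a mean ratio above 1.5, and its methods list assays for both genes. At P0 the fit to the arrays gave ratios of 1.34 for Dyrk1a (95% interval 1.08 to 1.66) and 1.17 for Rcan1 (0.75 to 1.84). Both P0 intervals held 1.5.

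**Figure D2:**
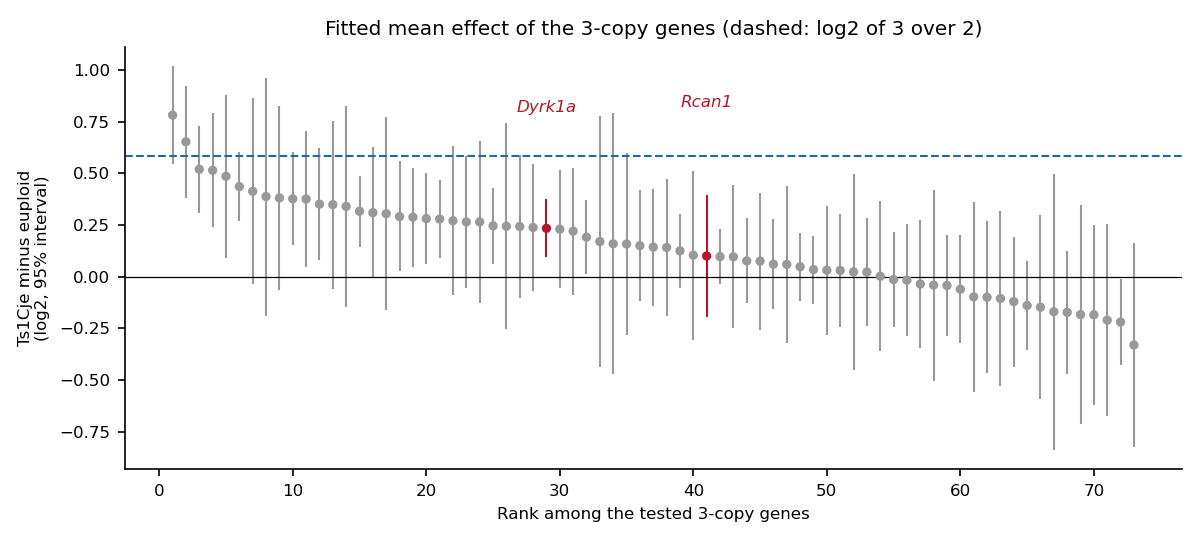
Fitted mean Ts1Cje minus euploid log2 difference of the 73 tested three-copy genes in order of size, with 95% intervals and the dashed line at 0.585. Dyrk1a (0.23) and Rcan1 (0.10), in red, lie in the middle of the order and both intervals end below the dashed line.

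Rcan2, the two-copy relative of Rcan1, which also binds calcineurin, had no detected difference on the same-stage arrays, with 9 of 16 above 0, a range of -0.87 to 0.82 and a mean of -0.02 ± 0.429 (SD, exact permutation p = 0.8945). At P10 its 4 values lay close together, at 0.05, 0.03, 0.09 and 0.02. Its fitted mean effect of 0.20 (SE 0.188, 95% interval -0.19 to 0.59) came with 1 cross-stage value of 4.38, on P7/P10 replicate 2, the farthest from 0 of all member values. On that array the Ts1Cje mouse of P7 stood far above the euploid mouse of P10, while the other P7/P10 array gave -0.16. Without it the mean effect was 0.06 (SE 0.101).

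Of the genes of the catalytic subunit, Ppp3ca had a mean effect of -0.18 (SE 0.103, 95% interval -0.39 to 0.03), below 0 on 10 of 16 same-stage arrays, which ran from -2.085 to 0.60 (exact permutation p = 0.413). Its P10 arrays gave 0.01, -0.15, -0.02 and -2.085, so 3 of 4 lay near 0. Without P10/P10 replicate 4 the mean effect was -0.10, and without the 3 arrays of fewest values, chosen after seeing the data, it was -0.02 (SE 0.0662). The fitted value at P10, -0.61 (unadjusted limma p = 0.0211, n = 28 arrays), was -0.22 (unadjusted p = 0.315) without P10/P10 replicate 4 and -0.05 (unadjusted p = 0.787) without the 3 arrays of fewest values. Ppp3cb had the narrowest range of the subunits on same-stage arrays, from -0.27 to 0.31 over 16 arrays with 8 above 0 (exact permutation p = 0.8135), and its mean effect was 0.01 (SE 0.0829, 95% interval -0.157 to 0.185). It was the only subunit gene averaged over 2 probes, which hardly followed each other (r = 0.086), so the ranges are not like for like. Ppp3cc had a mean effect of -0.14 (SE 0.0978, 95% interval -0.35 to 0.06), with same-stage values from -1.22 to 0.42 and 9 of 14 above 0. All 3 of its P0 values lay above 0, at 0.39, 0.03 and 0.42. On the 4 arrays that paired P3 with P7 it was lower in the Ts1Cje mouse whichever mouse was older, at -0.82, -0.50, -0.89 and -0.54.

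Ppp3r1, the gene of the regulatory subunit, had a mean effect of 0.03 (SE 0.0693, 95% interval -0.12 to 0.17) and same-stage values from -0.65 to 0.49 with 7 of 16 above 0 (exact permutation p = 0.824). All 4 of its P0 arrays lay below 0, at -0.07, -0.18, -0.65 and -0.002, and the fitted P0 value was -0.22 (SE 0.16). Of the NFAT factors, Nfatc1 had a mean effect of -0.10 (SE 0.121, 95% interval -0.35 to 0.15) and a same-stage range of -0.68 to 0.63. Its 4 same-stage arrays of P10 all lay above 0, at 0.46, 0.003, 0.18 and 0.63, while the fitted P10 value, which also uses the cross-stage arrays, was -0.09 (SE 0.288). Its 2 probes did not follow each other across 25 shared arrays (r = -0.407 over arrays that share dyes and stages), so its averages join unlike readings. Nfatc3 had a mean effect of -0.04 (SE 0.116, 95% interval -0.28 to 0.20) and ran from -1.845 to 0.90 on 13 same-stage arrays. At P3 all 4 of its arrays lay above 0, at 0.295, 0.275, 0.26 and 0.90 (fitted 0.44, SE 0.231, unadjusted limma p = 0.0709, n = 24 arrays), and at P0 its fitted value of -0.45 (SE 0.277) came with P0/P0 replicate 3 at -1.845, the other 2 arrays giving 0.21 and 0.02.

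**Figure D3:**
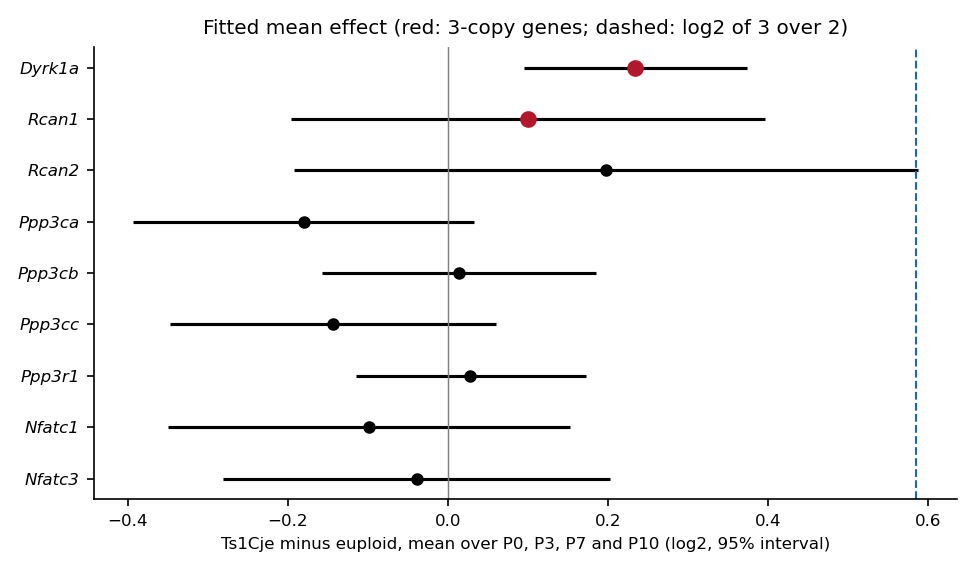
Fitted Ts1Cje minus euploid log2 difference averaged over the 4 stages, with 95% intervals, for the 9 measured genes. The interval of Dyrk1a (0.095 to 0.374) is the only one of the 9 that leaves out 0, and that of Rcan2, which reaches 0.59, is the only one to reach the dashed line at 0.585.

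No member passed after adjustment over all features in any of the 10 fitted differences or in the test between stages. For the mean effect 0.018% of all features passed, at P3 0.0045%, and 0% at P0, P7, P10 and between stages. Before adjustment 1 of 9 members was past 0.05 for the mean effect and 1 each at P0 and P7, Dyrk1a each time, against 4.08% of all features for the mean effect, 4.43% at P0 and 1.73% at P7. At P3 0 of 9 members and 5.61% of features were past it, at P10 1 of 9, Ppp3ca, and 5.21%, and between stages 0 of 9 and 3.08%. The median of the 9 mean effects was 0.01 and that of all features -0.002, with 5 of the 9 above 0. Counts of 0 or 1 of 9 are too few to be told from these background shares.

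For the changes with age too, no member passed after adjustment. Ppp3cb, of the catalytic subunit, had the lowest unadjusted p. On the cross-stage arrays its older minus younger values were -1.17, -0.01, -0.60 and -0.33 from P0 to P3 and -1.03, -0.31, -0.14 and -0.40 from P3 to P7, below 0 on all 8. From P7 to P10 they were 0.08, 1.705, 0.215 and 0.007, above 0 on all 4, and 1.705 came from P10/P7 replicate 2, the array of fewest values. The fitted change of Ppp3cb from P0 to P7 was -1.105 (SE 0.333, 95% interval -1.79 to -0.42), a ratio of 0.465, with an unadjusted limma p = 0.00292 (n = 28 arrays) and a limma adjusted p = 0.448. From P3 to P7 it was -0.60 (SE 0.257, limma adjusted p = 0.326). Its probes 1 and 2 disagreed: from P0 to P7 they gave -0.52 and -1.64, but from P0 to P10 0.14 and -1.67 and from P7 to P10 0.66 and -0.04, opposite in direction. Probe 2 had no value on P10/P7 replicate 2, where 1.705 came from probe 1 alone, so the 2 fits use unlike arrays. Across 27 shared arrays the probes had r = 0.086.

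Ppp3r1 values lay on opposite sides of 0 at the first and the second step. From P0 to P3 its older minus younger values were 0.11, 0.215, 0.36 and 0.33, and from P3 to P7 -0.26, -0.42, -0.28 and -0.50, so the 2 steps did not overlap. How many of all features switch sides in this way, as Ppp3r1 and Ppp3cb did, was not counted. From P7 to P10 they were 0.46, 1.30 and -0.13. In the fit, which also uses the same-stage arrays, the change was 0.15 from P0 to P3 (SE 0.212), -0.47 from P3 to P7 (SE 0.2103, unadjusted limma p = 0.0363, n = 27 arrays) and 0.52 from P7 to P10 (SE 0.2395, unadjusted p = 0.0404). The limma adjusted p was 0.365 for P3 to P7 and 0.852 for P7 to P10. The unadjusted p of the P3 to P7 change lay above 0.05 without any 1 of 5 arrays (at most 0.099) and with the Xist covariate, where the change was -0.39. Without P10/P7 replicate 2 the P7 to P10 change was 0.21 (unadjusted limma p = 0.399, n = 26 arrays).

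For Nfatc1 and Rcan2 1 array each moved the step from P7 to P10. Nfatc1 had a fitted change of -1.20 (SE 0.414, unadjusted limma p = 0.00828, n = 27 arrays, limma adjusted p = 0.813), and its 3 values were -2.92, 0.08 and -0.06. Without P10/P7 replicate 1, which gave the first, the change was -0.04. The value of -2.92 came from probe 2 alone. For this step the fit gave -0.135 (SE 0.276) for probe 1 and -1.21 (SE 0.608) for probe 2. The same step for Rcan2 was -1.38 (SE 0.642, unadjusted limma p = 0.0425, n = 27 arrays), from values of 0.71, 0.16 and -4.38, and without P7/P10 replicate 2 it was 0.19. From P0 to P3 Rcan2 gave 1.60, -0.09, -0.12 and -0.35, and from P3 to P7 -0.755, -0.51, -0.34 and 0.04.

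**Figure D4:**
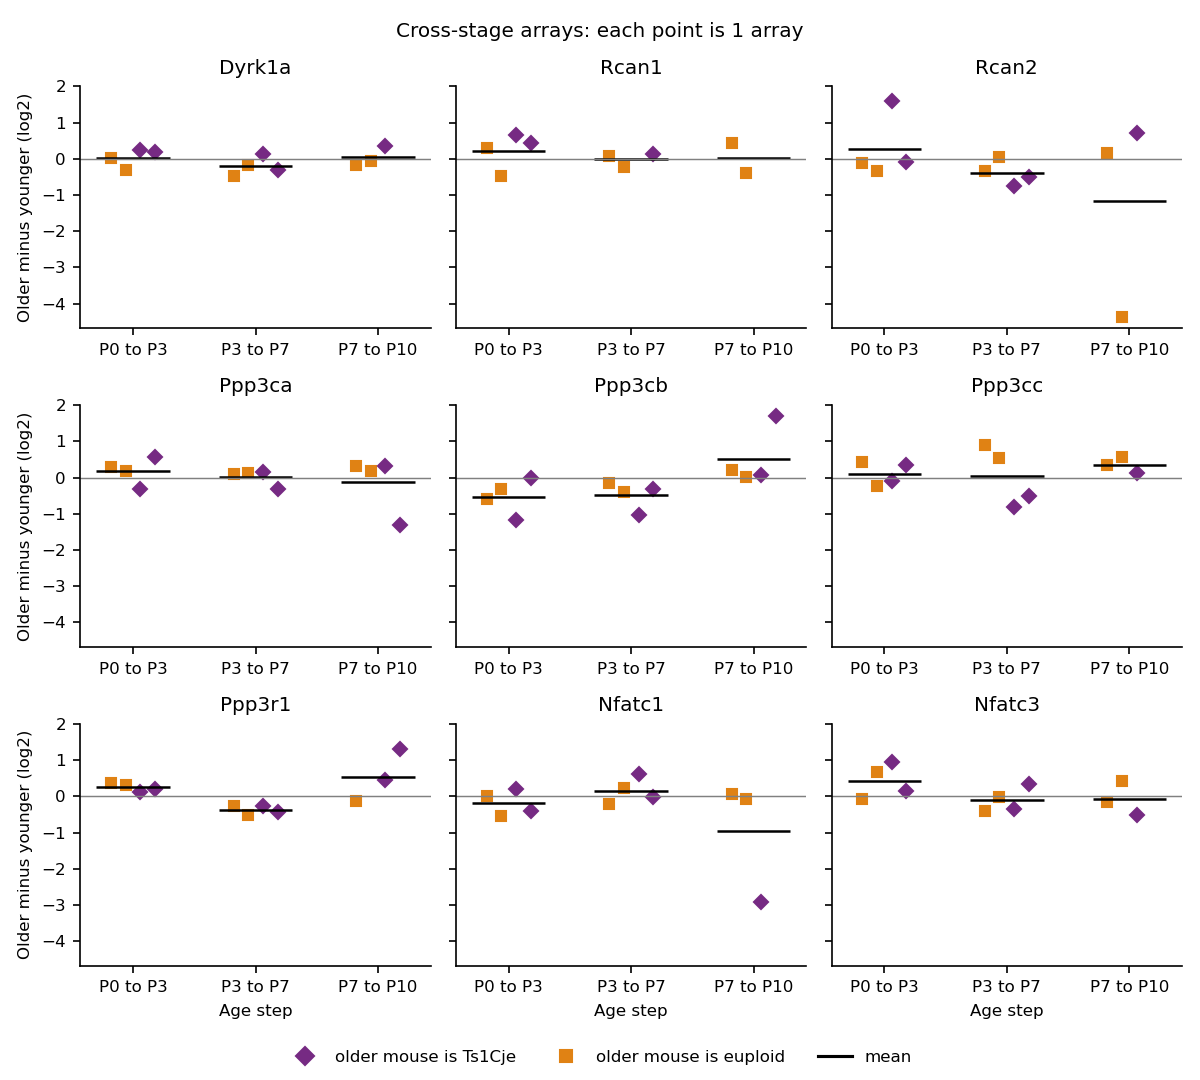
Log2 difference of the older minus the younger mouse on the 12 cross-stage arrays, by age step, for the 9 measured genes. Each point is 1 array, diamonds where the older mouse is Ts1Cje and squares where it is euploid, and lines are means. Ppp3cb lies below 0 on all 8 arrays of the first 2 steps, Ppp3r1 switches sign between them, and single arrays of Rcan2 (-4.38) and Nfatc1 (-2.92) stand apart from P7 to P10.

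No change with age was detected for either three-copy gene, within the wide intervals of the fit. Dyrk1a stayed between -0.48 and 0.35 on the 11 cross-stage arrays that measured it, 5 above 0, with a mean of -0.05 ± 0.265 (SD, exact permutation p = 0.519), and its fitted change from P0 to P10 was 0.09 (95% interval -0.57 to 0.75). Rcan1 lay between -0.49 and 0.65 on 9 arrays, 6 above 0, with a mean of 0.10 ± 0.397 (SD, exact permutation p = 0.449), and its change from P0 to P10 was 0.47 (95% interval -0.95 to 1.88). It had no value on either P10/P7 array. The exact permutation p over all cross-stage arrays lay between 0.37 and 0.902 for the 7 other members, whose steps often ran in opposite directions. Ppp3ca had a fitted change from P0 to P10 of 0.35 (SE 0.498), Ppp3cc of 0.71 (SE 0.461) and Nfatc3 of 0.06 (SE 0.527).

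Over the 9 members, 0 passed before adjustment from P0 to P3, 1 from P0 to P7 (Ppp3cb), 0 from P0 to P10, 2 from P3 to P7 (Ppp3cb and Ppp3r1, both lower) and 3 from P7 to P10 (Ppp3r1 higher, Nfatc1 and Rcan2 lower). The background shares of all features were 6.11%, 6.45%, 6.92%, 12.1% and 5.79% in that order. After adjustment they were 0.0045% from P0 to P3, 0.0135% from P0 to P7, 0.018% from P0 to P10, 0.985% from P3 to P7 and 0% from P7 to P10, with 0 of 9 members in each. The median of the 9 members was -0.135 from P3 to P7 and 0.21 from P7 to P10, against -0.01 and 0.01 over all features.

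Around the members, 63 of 69 further genes of the route in 8 lists were tested. For trisomy none passed after adjustment at any stage or in the mean over stages. In the mean over stages 2 of 63 (3.17%) had an unadjusted limma p below 0.05, both lower, against 4.08% of all features. They were Camk1, a calmodulin-dependent kinase (-0.41, SE 0.182, unadjusted limma p = 0.0369, n = 25 arrays), and Csnk1a1, a casein kinase that phosphorylates NFAT (-0.19, SE 0.0933, unadjusted p = 0.0492). None of the 8 regulators and anchors of calcineurin, of the 3 other NFAT factors or of the 7 measured DYRK and HIPK kinases was past that threshold in the mean over stages, nor any of the 12 partners and substrates of DYRK1A. The list medians of the mean effect lay between -0.10 and 0.09. By stage 0 of 63 were past it at P0, 6 (9.52%, 4 higher and 2 lower, against 5.61% of features) at P3, 2 (3.17%, 1 in each direction, against 1.73%) at P7 and 2 (3.17%, both lower, against 5.21%) at P10. These genes are named after their values were seen. At P3 the higher ones were Cabin1 (1.03), an inhibitor of calcineurin, Nfatc2 (0.54), Crtc2 (0.46) and Amph (1.69), a substrate of DYRK1A. The lower ones at P3 were Camk1 (-0.82) and Bad (-0.30). At P7 they were Dyrk1b (-1.74), the closest relative of Dyrk1a, and Csnk1d (0.44), and at P10 Camk1 (-1.20) and Calm3 (-0.78).

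With age 1 of the 63 passed after adjustment, from P3 to P7, where 0.985% of all features passed. This was Ccnd1, which encodes cyclin D1, a protein that DYRK1A can phosphorylate. From P3 to P7 it fell by 2.39 on the log2 scale (SE 0.441, ratio 0.191, limma adjusted p = 0.0131). Its older minus younger values were -4.34, -2.25, -1.22 and -2.01 on the 4 arrays of that step, and 0.735, 1.06, 0.35 and 0.21 from P0 to P3. Without P7/P3 replicate 1 the change was -1.78 (limma adjusted p = 0.0801), and without P3/P7 replicate 2 it was -2.47 (adjusted p = 0.0677). From P3 to P7 11 of the 63 genes (17.5%) were past an unadjusted limma p of 0.05, 4 higher and 7 lower, against 12.1% of all features. From P0 to P10 5 of 63 (7.94%) were, against 6.92%. The 4 higher ones were Camk4 (2.29), a calmodulin kinase of granule neurons, Camk2d (0.925), another calmodulin kinase, Atp2b2 (0.89), a calcium pump of the plasma membrane, and Mef2a (1.025), a transcription factor that calcineurin activates. The lower one was Ccnd1 (-2.16). Their adjusted p lay between 0.529 and 0.619 by limma.

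By the pattern across arrays, the genes most like Dyrk1a among 12050 with at least 24 shared arrays were Klhl17 (r = 0.692, rho = 0.761, 24 arrays), Tbca (r = 0.685, rho = 0.732, 26 arrays) and Stox2 (r = 0.676, rho = 0.746, 26 arrays), none of them a member. Rcan1 had only 23 values, so the minimum was lowered to 23 for it after the values were seen, which left 6188 genes. The nearest were Cyp2j5 (r = 0.813, rho = 0.607), Ddx20 (r = 0.786, rho = 0.468) and Adamts16 (r = 0.761, rho = 0.73). For Ddx20 and Cyp2j5 rho lay well below r. The points share arrays, dyes and stages, and each is the highest of the many correlations computed.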

How the data were processed

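Total RNA of individual cerebella was labelled with Cy5 or Cy3 and hybridized to spotted two-colour arrays. The authors deposited log2 Cy5/Cy3 ratios, from which they excluded control spots, irregular spots and spots below 1.2-fold of the local background, and which they normalized within each array by LOWESS. Excluded spots are missing values. Here each ratio was signed Ts1Cje minus euploid by the dye of the labels. Of 25344 probes 20626 had 1 gene symbol, and 257 control spots were left out. Symbols were updated through RefSeq GRCm38.p6. A gene needed values on at least 14 arrays and 5 residual degrees of freedom. The 7-parameter ANOVA of the methods (3 age changes and 4 stage effects of trisomy, no dye or batch term) was fitted in limma 3.58.1 under R 4.3.3 with moderated variances (prior 2.74 degrees of freedom) and Benjamini-Hochberg adjustment at 0.05, after tests on simulated data. Per-array values were tested by enumerated sign flips. Figures were made with matplotlib 3.10.9 under Python 3.11.15. Replicate numbers follow the order of deposition, and p-values measure the spread between arrays. Each mouse was on 1 array, so variation between mice and between hybridizations cannot be told apart. The labels give no litters. By design an array paired a male with a female. One P7 array has P3 as the stage label of its euploid mouse and was taken by its source name. The largest correlation between 2 arrays was 0.246, so none was a copy of another. Named were all 10 members, list genes passing after adjustment, for the mean effect and P0 to P10 up to 2 genes a list at an unadjusted p below 0.05, and the 3 genes most like Dyrk1a and Rcan1. Outside this rule, list genes and markers with an unadjusted limma p below 0.05 for trisomy at a single stage were named after their values were seen. The members and lists were chosen with earlier results of these data known. Alternatives are given in the closing section. The number of values on an array limits the precision.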

Additional observations from a re-analysis of the deposited data

Results flagged for a closer look

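Single arrays stood apart from the other 3 of their stage in 3 of 28 groups of 4 same-stage values, where chance flags about 1 in 20. Dyrk1a was at 0.636 on P3/P3 replicate 4, against -0.03 to 0.08 on the other P3 arrays. Nfatc3 was at 0.898 on the same array, against 0.257 to 0.295. Ppp3ca was at -2.085 on P10/P10 replicate 4, the array with the second fewest values, against -0.15 to 0.01.

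On the cross-stage arrays, all values of Ppp3cb moved one way at one age step and the other way at another. Its mean older minus younger difference from P7 to P10 exceeded that from P0 to P3 by 1.03 and that from P3 to P7 by 0.97. Ppp3cb was at 1.705 on P10/P7 replicate 2, the array of fewest values. Without it, a choice made after seeing the data, these were 0.63 and 0.57, and the mean from P7 to P10 was 0.10 in place of 0.50. In the fit probe 1 of Ppp3cb gave 0.66 and probe 2 -0.04 for this step, and probe 2 had no value on P10/P7 replicate 2. The mean of Ppp3r1 from P3 to P7 was -0.62 relative to that from P0 to P3, with all 4 arrays lower in the first case and all 4 higher in the second. These differences between steps were not tested, and the share of all features with such a switch was not counted.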

How the results depend on the processing

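Of 1387 values of 34 results under the alternatives, 1331 kept their direction and their side of the adjusted threshold, 52 turned sign and 4, all of Ccnd1, no longer passed. No paired analysis was possible because replicate numbers only follow the order of deposition and the sources used here tie no single mouse to a litter. The Ts1Cje and the euploid mouse of an array are paired in every ratio. Dyrk1a and Rcan1 stayed above 0 for the mean effect in all of them, at 0.19 to 0.35 and 0.02 to 0.19, and 0 members passed after adjustment under any of them (the lowest adjusted p, 0.116, was that of Ppp3cb from P3 to P7). Leaving out 1 array moved Dyrk1a between 0.21 and 0.25, Rcan1 between 0.06 and 0.16 and Ppp3ca between -0.22 and -0.10, and Ppp3ca was at -0.07 with array weights.

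The cause of the sign changes was not tested. For the mean effect, Ppp3cb was at -0.04 with the Xist covariate, with array weights and without the 3 arrays of fewest values (chosen after seeing the data), at -0.01 with between-array scaling or the same-stage arrays only, at -0.06 within ASJ and at -0.02 and -0.01 for its probes alone. On the same-stage arrays Rcan2 was at -0.02, Ppp3r1 at -0.02, Nfatc1 at 0.03 and Nfatc3 at 0.01. Nfatc1 was at 0.06 within ASJ, Nfatc3 at 0.06 with Xist, 0.09 within ASJ and 0.03 with 1 genotype effect, and Ppp3r1 at 0.00 with array weights and -0.02 within ATJ. From P0 to P10, Dyrk1a was at -0.08 with Xist or the cross-stage arrays only and -0.06 with 1 genotype effect, Ppp3r1 at -0.08 with weights, -0.05 with scaling and -0.13 without the 3 arrays, and Nfatc3 at -0.07, -0.13 and -0.06. Rcan1 at P10 was at -0.04 with a dye term and at P3 at 0.14 with a dye term per prefix, 0.13 with weights and 0.03 with scaling. With arrays left out in turn, the mean effect ran from -0.04 to 0.04 for Ppp3cb, -0.02 to 0.05 for Ppp3r1, -0.14 to 0.08 for Nfatc1 and -0.09 to 0.07 for Nfatc3, and the change from P0 to P10 from -2.31 to 0.38 for Rcan2, -0.09 to 0.58 for Ppp3r1 and -0.20 to 0.31 for Nfatc3. Dyrk1a at P3 ran from -0.02 to 0.13, Rcan1 at P3 from -0.31 to 0.30 and at P10 from -0.05 to 0.19, and Rcan2 from P7 to P10 from -2.54 to 0.19. Ccnd1 from P3 to P7 was at -2.31 with Xist (limma adjusted p = 0.0763) and -2.02 with scaling (0.0529).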
